A study of Mus musculus with 24 samples.

Results

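The genes described here are 46 members of the type I interferon response, the set of genes that cells switch on when interferon alpha or beta reaches them. They were taken by symbol from a table of read counts with 53647 gene identifiers. All 46 were found in it and all 46 were among the 21280 genes with enough reads to test. RNA came from the cortex of 7.5-month-old mice of 3 genotypes with 8 libraries each. Every mouse carried the 5xFAD transgenes, human genes with familial Alzheimer's disease mutations that the neuronal Thy1 promoter drives, so no mouse free of amyloid serves as a baseline for these values. The 5xFAD group carried wild-type Plcg2, which encodes phospholipase C-gamma-2, a signalling enzyme of microglia and B cells. In the 5xFADM28L group the M28L variant of Plcg2 was homozygous, and in the 5xFADP522R group the P522R variant was. Each genotype had 4 libraries with the letter F in the title and 4 with M, and each library is taken as 1 mouse and named by its genotype, letter and number. The labels do not call the letter sex, but the X-inactivating RNA Xist and the Y-linked gene Ddx3y split all 24 libraries by it.

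Type I interferons bind a receptor made of IFNAR1 and IFNAR2. The kinases JAK1 and TYK2 on its inner side then start a signal that brings STAT2 and IRF9 together in the complex ISGF3. ISGF3 binds a short DNA motif, the interferon-stimulated response element (ISRE), in the promoters of genes whose products restrict viruses, sense nucleic acids or feed back on the pathway. In the brain microglia, astrocytes, endothelium and neurons can respond, and microglia with this gene programme have been described around amyloid plaques.

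The promoters of many members held the ISRE. RefSeq (GRCm38.p6) held promoter windows of 300 bases, 250 before and 50 after the annotated start, for 34 members. Both strands were searched for the core GAAANNGAAA (TTTCNNTTTC on the other strand), counting matches that overlap. It was present in 19 of the 34 members (55.9%) and in 3.99% of all 27025 genes with a window. Of 29 ISRE matches, 21 began within 150 bases before the start. Shown here are the 250 bases before the start of Isg15, Oas1a, Bst2, Ifi207 and Cmpk2, members on which the results below turn, 5′ to 3′ in the direction of the gene, with ISRE matches in capitals.
Isg15: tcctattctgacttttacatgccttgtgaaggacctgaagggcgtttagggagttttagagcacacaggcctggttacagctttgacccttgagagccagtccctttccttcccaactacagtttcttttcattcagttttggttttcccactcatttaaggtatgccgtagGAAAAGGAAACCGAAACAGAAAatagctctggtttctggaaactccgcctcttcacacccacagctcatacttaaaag
Oas1a: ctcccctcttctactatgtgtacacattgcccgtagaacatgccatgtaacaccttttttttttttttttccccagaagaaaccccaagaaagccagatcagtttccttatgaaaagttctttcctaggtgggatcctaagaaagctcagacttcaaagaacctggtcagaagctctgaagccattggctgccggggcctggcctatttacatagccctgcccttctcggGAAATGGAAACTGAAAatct
Bst2: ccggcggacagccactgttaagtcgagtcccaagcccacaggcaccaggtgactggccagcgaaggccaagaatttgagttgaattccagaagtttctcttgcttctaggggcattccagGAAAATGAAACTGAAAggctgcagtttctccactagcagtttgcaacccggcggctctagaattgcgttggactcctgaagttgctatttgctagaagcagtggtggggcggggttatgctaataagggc
Ifi207: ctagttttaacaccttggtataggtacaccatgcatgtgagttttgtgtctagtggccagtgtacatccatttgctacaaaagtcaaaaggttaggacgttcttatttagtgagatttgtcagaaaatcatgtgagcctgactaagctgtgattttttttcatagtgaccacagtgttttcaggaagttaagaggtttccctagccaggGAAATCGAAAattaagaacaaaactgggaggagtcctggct
Cmpk2: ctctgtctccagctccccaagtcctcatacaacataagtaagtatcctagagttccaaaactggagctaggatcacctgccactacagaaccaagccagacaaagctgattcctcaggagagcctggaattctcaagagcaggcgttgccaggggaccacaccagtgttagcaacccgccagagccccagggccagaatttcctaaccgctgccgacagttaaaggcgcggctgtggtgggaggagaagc
They lie at chr4:156200819-156201068, minus strand (Isg15), chr5:120907526-120907775, minus strand (Oas1a), chr8:71537473-71537722, minus strand (Bst2), chr1:173741810-173742059, minus strand (Ifi207) and chr12:26468965-26469214, plus strand (Cmpk2). Isg15 had 3 matches in a row that share letters, beginning at -78, -72 and -66 relative to the start. Oas1a and Bst2 had 2 each that share letters, beginning at -20 and -14 and at -130 and -124. Ifi207 had 1, at -41, and the Cmpk2 window had none. Ifitm3 had its 2 matches just past the start, in this stretch at chr7:141010716-141010742, minus strand.
Ifitm3: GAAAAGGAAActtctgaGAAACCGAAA
A match is a description of the letters and not evidence of binding. Windows were not given for Dhx58, Ifi204, Ifi27, Ifi27l2a, Mx1, Mx2, Oas2, Parp14, Parp9, Rtp4, Usp18 and Zbp1.

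Total counts ran from 79230161 to 115154197 per library, of which 30124 to 60260 fell on the 46 members. Levels are in CPM, the counts of a gene relative to the TMM-scaled size of its library. Xist lay between 170.2 and 420 CPM in F and at most at 1.86 CPM in M libraries, and Ddx3y between 32.7 and 52.3 CPM in M and at most at 0.328 CPM in F libraries. Bc1, a short neuronal RNA, took a mean of 5.81% of counts in 5xFAD, 3.998% in 5xFADM28L and 10.2% in 5xFADP522R, with an exact permutation p, adjusted over 12 tests, of 0.059, 0.035 and 0.0037 for 5xFADM28L against 5xFAD, 5xFADP522R against 5xFAD and 5xFADP522R against 5xFADM28L. Plcg2 itself lay at a mean of 9.38, 8.69 and 19.5 CPM in 5xFAD, 5xFADM28L and 5xFADP522R.

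The members were read at low to moderate levels. On a scale per exon length (FPKM, mean of 24 libraries), which allows comparison between genes, Ifitm3 was highest at 25.7, followed by Ifi27 at 22.5, Lgals3bp at 21.5, Ifit3 at 13.1 and Ifi27l2a at 6.76. Ifitm3 encodes a membrane protein that blocks the fusion of viruses in endosomes, and Lgals3bp a secreted glycoprotein that binds galectins. Oas3 was lowest at 0.0713 and had no count in 5xFADP522R M 21. Within 5xFAD Cmpk2 and Stat2 varied little, at 23.8 to 27.7 CPM (median 26.2) and 27.7 to 32.4 CPM (median 30.7), while Ifi27l2a ran widely, at 0.685 to 7.36 CPM (median 3.06). Cmpk2 was more spread in 5xFADP522R (16.3 to 23.2 CPM) and Stat2 in 5xFADM28L (23.8 to 32.9 CPM). The range of all 46 summed was 276 to 590.5 CPM per library.

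A score per library, the mean over the 46 members of their z-scored log2 CPM, put the libraries in an order that followed the title letter more than the genotype. The 4 F libraries of 5xFAD scored 0.627 to 1.23 and its 4 M libraries -0.926 to 0.048. In 5xFADM28L the F libraries scored -0.299 to 0.481 and the M libraries -1.41 to -0.066. In 5xFADP522R the F libraries scored 0.206 to 0.811 and the M libraries -1.04 to 0.136. In 5xFAD and 5xFADP522R every F library scored above every M library, and in 5xFADM28L the letters overlapped. The library 5xFAD F 1190 was among the 6 highest of 24 for 42 of the 46 members. At the other end, 5xFADM28L M 15 was among the 6 lowest for 42 members and 5xFADM28L M 11 for 41. No F library of 5xFAD was among the 6 lowest for any member.

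**Figure D1:**
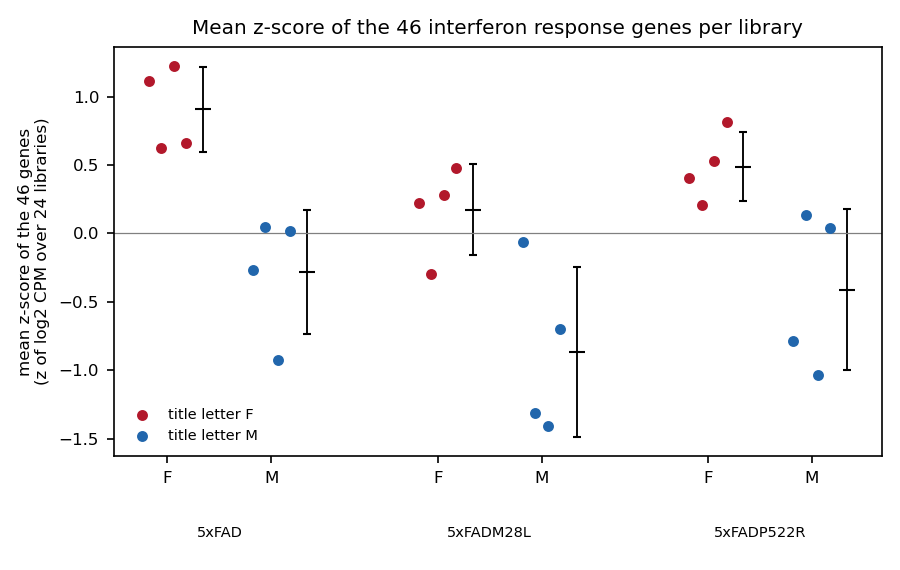
Mean z-score of the 46 members in each of 24 libraries, by genotype and title letter (points, 1 library each; black marks, mean and SD of 4 libraries). In 5xFAD and 5xFADP522R all F libraries lie above all M libraries, and scores run from 1.23 in 5xFAD F 1190 to -1.41 in 5xFADM28L M 15.

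**Figure D2:**
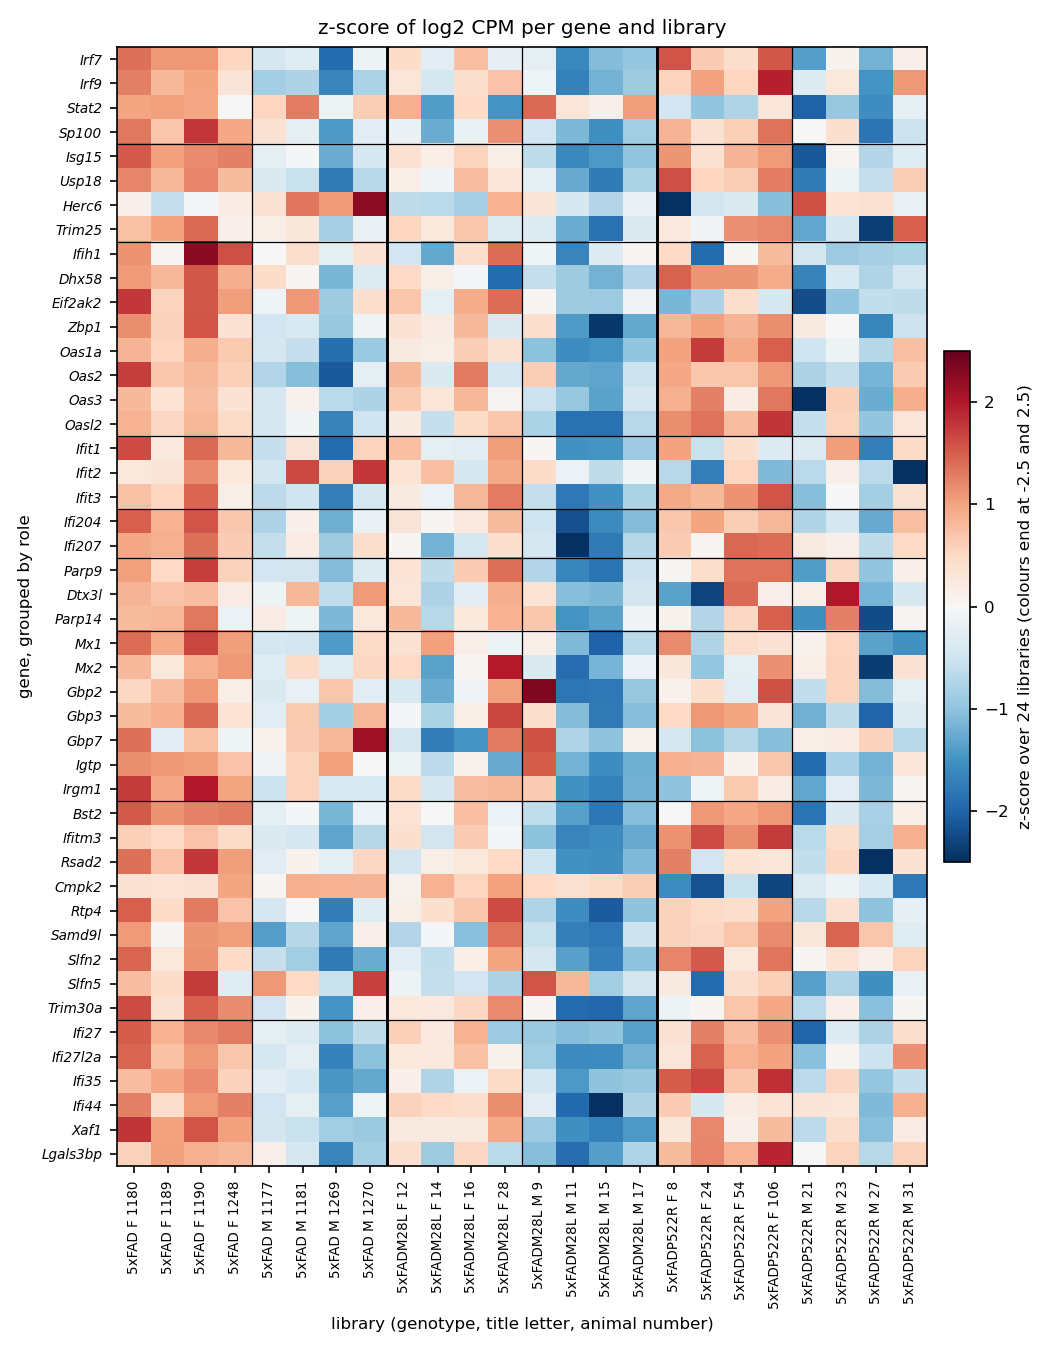
Z-scored log2 CPM of each of the 46 members (rows, grouped by role) in each of 24 libraries (columns, grouped by genotype and title letter). High values fill the columns of the F libraries of 5xFAD, and low values those of 5xFADM28L M 11 and M 15, while Cmpk2 is low in the 5xFADP522R columns.

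Upstream of the members, the interferons themselves were close to absent. None of 13 listed ligand genes passed the filter on low counts. Ifnb1, the gene of interferon beta, reached at most 0.0174 CPM in any library and Ifng, the type II interferon, at most 0.0498 CPM. The receptor subunits were well read, Ifnar1 at 25.7 to 42.8 CPM and Ifnar2 at 13.3 to 27.4 CPM over the 24 libraries. The kinases Jak1 and Tyk2 lay at 139.5 to 215 CPM and 8.84 to 22.5 CPM. In all, 36 of 50 listed pathway genes could be tested, and their results stand with each comparison.

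The comparison of 5xFADM28L with 5xFAD asks how the M28L variant bears on these genes in a brain with plaques. All 46 members had a fitted difference below 0, as 48.5% of all genes did, with a median of -0.297 on the log2 scale against 0.006 over all genes tested. Most of these differences were small, and 2 members, Bst2 and Ifi207, passed the test and were lower in 5xFADM28L. Calls are at an adjusted p below 0.05 in edgeR's quasi-likelihood test, adjusted over the 21280 genes. Of all genes 1.21% were called in this comparison and 0.71% were called lower. At an unadjusted p below 0.05, 20 members were lower and 0 higher, where 5.39% of all genes were lower and 5.94% higher. In bulk tissue fewer cells of a type and less RNA per cell cannot be told apart.

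Bst2 encodes tetherin, which holds budding virus particles at the cell surface. Its lowest, median and highest values were 2.696, 6.702 and 10.6 CPM in 5xFAD, 1.92, 4.04 and 7.14 CPM in 5xFADM28L and 1.897, 5.05 and 8.41 CPM in 5xFADP522R. The 5xFADM28L values sat low but overlapped those of 5xFAD, since the F libraries of 5xFADM28L (4.52 to 7.14 CPM) reached above the M libraries of 5xFAD (2.696 to 4.79 CPM). The difference was -0.68 (SE 0.16, adjusted p = 0.0309). Within F each 5xFADM28L library lay below each 5xFAD library, whose lowest was 8.62 CPM, while the M libraries overlapped. The share of all genes that separate in this way within F was not computed. With only the F or only the M libraries fitted, Bst2 was not called.

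Ifi207 encodes a nuclear DNA-binding protein of the HIN200 family, whose members are near-identical in places, so reads may have been split among them. Its lowest, median and highest values were 0.595, 1.26 and 1.96 CPM in 5xFAD, 0.229, 0.703 and 1.19 CPM in 5xFADM28L and 0.678, 1.15 and 2.02 CPM in 5xFADP522R. The groups overlapped. The difference was -0.86 (SE 0.22, adjusted p = 0.0478). Its neighbour Ifi204, of the same family, had a difference of -0.57 (SE 0.18) that did not pass (adjusted p = 0.139).

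Neither call held when single libraries were left out. Bst2 was not called without any 1 of 10 libraries, 5xFAD F 1180, F 1190, F 1248, M 1177, M 1181 and M 1270 and 5xFADM28L F 12, F 14, M 11 and M 15 (edgeR's adjusted p = 0.0539 to 0.0757), and without each of these the count of called members was 0. Ifi207 was not called without any of these 10, nor without 5xFAD F 1189, 5xFADM28L F 16, or 5xFADP522R F 8, F 106, F 54 or M 23, which enter the shared estimate of the spread (adjusted p = 0.0501 to 0.114). Without the 5 libraries in which Bc1 took over 10% of counts, Bst2 was called and Ifi207 was not (adjusted p = 0.03 and 0.0606).

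Next in size among the members that did not pass were Ifi27l2a at -0.66 (SE 0.28), Rsad2 at -0.62 (SE 0.17), Ifi204 (above) and Isg15 at -0.56 (SE 0.15), with edgeR's adjusted p of 0.329 for Ifi27l2a, 0.0707 for Rsad2 and 0.0643 for Isg15. Rsad2 encodes viperin, an enzyme that makes a chain-terminating nucleotide, and Isg15 a ubiquitin-like protein that is attached to other proteins. By role, the 2 HIN200 genes had a median of -0.719, the 6 genes without a shared role -0.353, the 8 RNA sensors and dsRNA enzymes -0.336, and the 9 membrane and metabolic effectors -0.319. The 7 GTPases had a median of -0.265, the 4 genes of the ISG15 system -0.256, the 4 transcription factors -0.212, the 3 ADP-ribosylation genes -0.164 and the 3 Ifit genes -0.146. Cmpk2, a mitochondrial nucleotide kinase, stood at -0.01, the member nearest to 0. Among the pathway genes 0 of 36 were higher and 1 was lower, the phosphatase gene Ptpn6 at -0.61 (SE 0.14, adjusted p = 0.017). Of all genes 0.503% were called higher and 0.71% lower. Among 68 tested genes of a further list of interferon-induced genes 5 were lower and 0 higher, Lgals3 at -1.08, Nlrc5 at -0.75, Psmb9 at -0.60, Psmb8 at -0.57 and Cd274 at -0.56.

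Markers of microglia moved with this comparison. Of 8 genes of plaque-associated microglia 4 were lower and 0 higher, with a summed level of 149.6 to 362 CPM in 5xFAD and 97.0 to 231 CPM in 5xFADM28L (exact permutation p adjusted over 12 tests 0.035). Of 14 genes of microglia at large 5 were lower and 0 higher, with a summed level of 786 to 1703 CPM and 699.7 to 1371 CPM (adjusted p = 0.14 in the same exact test). The exact test leaves out the title letter, which the edgeR calls keep as a term. Its p-values therefore include the spread between letters. Of 6 endothelial genes 1 was lower. Of all genes 0.503% were called higher and 0.71% lower. The part of these markers in the differences of the members was not tested.

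The comparison of 5xFADP522R with 5xFAD asks the same of the other variant and shares its 5xFAD libraries with the comparison above. Here the members went both ways. Oas1a, Ifitm3 and Slfn2 were higher in 5xFADP522R, and Cmpk2, Eif2ak2, Ifit2, Stat2, Irgm1 and Slfn5 were lower. These 9 calls are 9 of 46 members where 29.8% of all genes were called (15% higher and 14.8% lower), so the members were called no more often than genes in general. Their median was -0.082, with 17 differences above 0 and 29 below, against -0.044 over all genes.

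Cmpk2 was the member with the smallest p. Its lowest, median and highest values were 23.8, 26.2 and 27.7 CPM in 5xFAD, 24.1, 25.8 and 27.9 CPM in 5xFADM28L and 16.3, 19.95 and 23.2 CPM in 5xFADP522R. Every 5xFADP522R library lay below every library of the other genotypes, and no other member separated 5xFADP522R from either genotype. Of all genes 1.18% lay wholly below 5xFAD and 1.71% wholly above it, and 0.963% lay wholly below 5xFADM28L and 1.65% wholly above it. The difference from 5xFAD was -0.40 (SE 0.07, adjusted p = 0.000137). It was -0.01 in 5xFADM28L and it was called within F (-0.43) and within M (-0.30) with only those libraries fitted.

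Eif2ak2 encodes PKR, a kinase that stops translation when it binds dsRNA. Its lowest, median and highest values were 6.64, 9.51 and 11.7 CPM in 5xFAD, 6.597, 7.96 and 10.8 CPM in 5xFADM28L and 4.98, 6.89 and 8.81 CPM in 5xFADP522R. The difference was -0.45 (SE 0.10, adjusted p = 0.00116), with overlap of the groups. Ifit2, which encodes a protein that binds RNA and is involved in antiviral defence, had 10.3, 12.1 and 15.2 CPM in 5xFAD, 9.95, 11.4 and 13.2 CPM in 5xFADM28L and 7.05, 9.86 and 12.2 CPM in 5xFADP522R, again lowest, median and highest, and a difference of -0.39 (SE 0.10, adjusted p = 0.00439). Both genes had their lowest median in 5xFADP522R, and Ifit2 too overlapped with 5xFAD.

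Stat2, the ISGF3 subunit that sets type I apart from type II signalling, had 27.7, 30.7 and 32.4 CPM in 5xFAD, 23.8, 29.4 and 32.9 CPM in 5xFADM28L and 22.5, 25.6 and 29.1 CPM in 5xFADP522R. Its difference was small, at -0.24 (SE 0.07, adjusted p = 0.0125). Irgm1 encodes a GTPase that acts on membranes around intracellular bacteria, and had 18.3, 24.1 and 31.4 CPM in 5xFAD, 14.2, 20.6 and 24.4 CPM in 5xFADM28L and 15.4, 19.6 and 23.4 CPM in 5xFADP522R. Its difference was -0.30 (SE 0.10, adjusted p = 0.0295), and those of all 7 GTPases were below 0, with a median of -0.279 and 1 called. Slfn5, of the Schlafen family, had 6.29, 7.81 and 9.57 CPM in 5xFAD, 5.93, 6.38 and 9.29 CPM in 5xFADM28L and 4.89, 6.39 and 7.76 CPM in 5xFADP522R and a difference of -0.32 (SE 0.12, adjusted p = 0.037). In each of these 3 genes the groups overlapped.

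Among the members that were higher, Oas1a encodes a synthetase that makes the messenger activating RNase L once it meets dsRNA. Its lowest, median and highest values were 0.6402, 2.599 and 4.46 CPM in 5xFAD, 0.806, 1.93 and 3.65 CPM in 5xFADM28L and 1.46, 4.298 and 7.92 CPM in 5xFADP522R. The 5xFADP522R values were the highest, with overlap, and the difference was 0.70 (SE 0.19, adjusted p = 0.00549). Paralogs of Oas1a share its sequence and may share its reads. Ifitm3 had 8.95, 16.6 and 21.7 CPM in 5xFAD, 7.72, 11.6 and 21.1 CPM in 5xFADM28L and 11.1, 24.7 and 34.1 CPM in 5xFADP522R and a difference of 0.50 (SE 0.13, adjusted p = 0.00386). Slfn2, which keeps T cells quiescent, had 2.32, 4.48 and 8.44 CPM in 5xFAD, 2.36, 3.83 and 6.96 CPM in 5xFADM28L and 4.75, 5.65 and 8.65 CPM in 5xFADP522R and a difference of 0.45 (SE 0.15, adjusted p = 0.0234). Both were highest in 5xFADP522R by the median and overlapped with 5xFAD.

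Cmpk2, Eif2ak2, Ifit2, Ifitm3 and Oas1a were called whichever library was left out. Stat2 was not called without 5xFADP522R F 24 (edgeR's adjusted p = 0.0588), and Slfn2 not without 5xFAD M 1269, 5xFAD M 1270 or 5xFADP522R M 31 (0.0519 to 0.0604). Irgm1 was not called without 5xFADP522R F 8, F 24 or M 21 or 5xFAD F 1180, F 1190 or M 1181 (0.0512 to 0.116). Slfn5 was not called without 5xFADP522R F 8, F 24, M 21, M 23 or M 27 or 5xFAD F 1180, F 1190, M 1177 or M 1270 (0.0538 to 0.14).

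The share of Bc1 reads moved with this comparison too. With its log2 as a covariate only Eif2ak2 was called, at -0.50 (edgeR's adjusted p = 0.0408), and Oas1a stood at 0.24 and Ifitm3 at 0.31 (adjusted p = 0.673 and 0.376). Without the 5 libraries above 10% Bc1, 5xFAD F 1180 and 5xFADP522R F 8, F 106, F 24 and M 31, 3 members were called, among them Cmpk2 at -0.24 and Stat2 at -0.32. The summed microglial level was 787 to 1759 CPM in 5xFADP522R (exact permutation p adjusted over 12 tests 0.76), with 2 of 14 genes higher and 2 lower. That of plaque-associated microglia was 133 to 455.5 CPM (0.67 in the same test, which leaves out the title letter), with 1 of 8 higher and 1 lower. Of all genes 15% were called higher and 14.8% lower, close to what these markers showed. Their part in the result was not tested.

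Of the 36 pathway genes 9 were higher in 5xFADP522R and 3 lower, where 15% of all genes were higher and 14.8% lower. The receptor subunits diverged, with Ifnar2 at 0.33 (SE 0.07, adjusted p = 0.00117) and Ifnar1 at -0.23 (SE 0.06, adjusted p = 0.00393). The factor genes Irf3, Irf5 and Irf8 were higher, at 0.38, 0.40 and 0.39. So were the adaptor genes Sting1, Mavs and Ticam1, at 0.42, 0.46 and 0.73, while Cgas, the DNA sensor that signals to Sting1, was lower at -0.49. The alternatives given for the members, such as the Bc1 covariate, are not given for these pathway genes. Of the further interferon-induced genes 12 of 68 were higher and 8 lower, from Ifitm1 at 1.10 to Ddx60 at -0.64. The counts of this further list are near the shares of all genes.

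**Figure D3:**
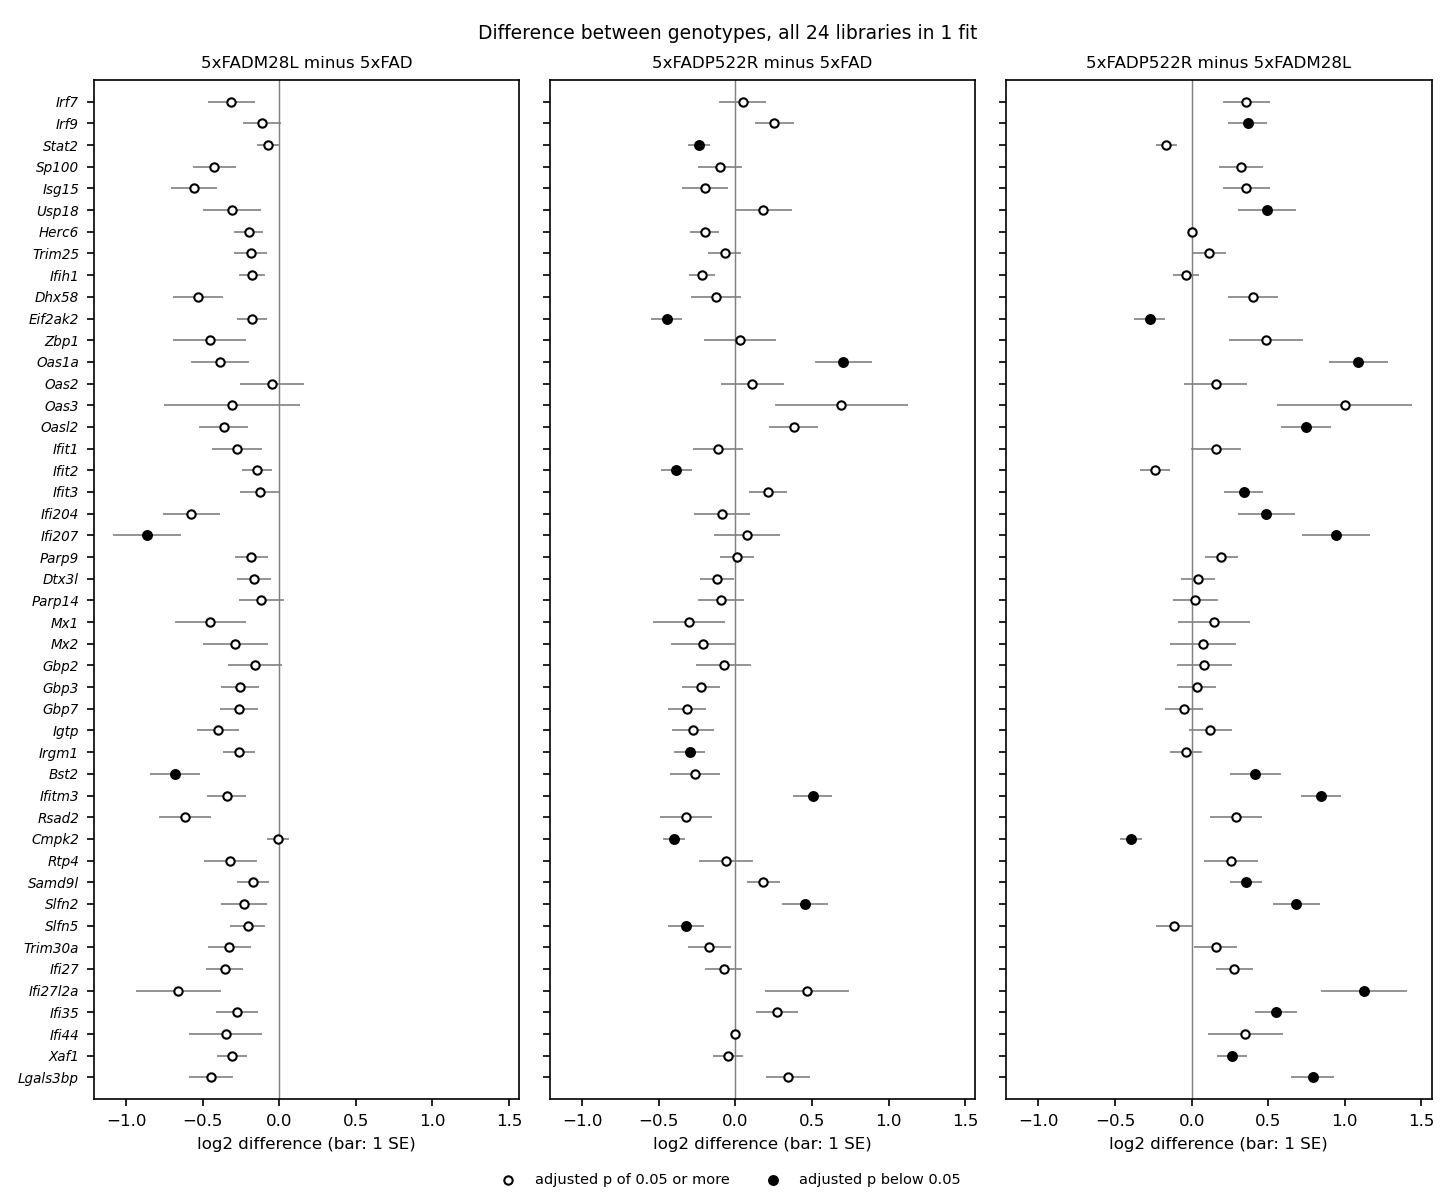
Fitted log2 difference (x axis) of each of the 46 members (y axis, grouped by role) for 5xFADM28L minus 5xFAD, 5xFADP522R minus 5xFAD and 5xFADP522R minus 5xFADM28L (panels from left to right, sharing libraries); bars are 1 SE and filled points are called. In the left panel all points lie below 0 with 2 called, and in the middle one points lie on both sides with 9 called.

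Set against each other, 5xFADP522R exceeded 5xFADM28L in 15 members and fell below it in 2, Cmpk2 at -0.40 (SE 0.07, adjusted p = 0.00012) and Eif2ak2 at -0.27 (SE 0.10, adjusted p = 0.0338). Of all genes 34.8% were called in this comparison, 16.5% higher and 18.3% lower. The 17 of 46 members were thus called about as often as genes in general, but mostly in 1 direction. The members had a median of 0.271 with 38 differences above 0, against -0.03 over all genes. The libraries are those of the comparisons above, so this adds no independent sample.

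By role, 1 of 4 transcription factors was higher, Irf9, the DNA-binding subunit of ISGF3. Its lowest, median and highest values were 11.4, 17.6 and 26.99 CPM in 5xFAD, 11.3, 17.2 and 22.96 CPM in 5xFADM28L and 11.99, 21.8 and 32.9 CPM in 5xFADP522R, and the difference was 0.37 (SE 0.13, adjusted p = 0.0254). In the ISG15 system 1 of 4 was higher, Usp18, which removes ISG15 from proteins, at 0.49. Of the RNA sensors and dsRNA enzymes Oas1a and Oasl2 were higher and Eif2ak2 was lower. Oas1a stood at 1.09 (SE 0.19, adjusted p = 7.88e-05). Oasl2, an OAS-like protein, had 5.92, 14.4 and 19.5 CPM in 5xFAD, 5.39, 9.63 and 18.1 CPM in 5xFADM28L and 8.19, 17.8 and 30.1 CPM in 5xFADP522R and a difference of 0.75 (SE 0.16, adjusted p = 0.000743). The groups overlapped in each of these genes.

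Both HIN200 genes were higher. Ifi207 stood at 0.94 (SE 0.22, adjusted p = 0.00166), and its 5xFADM28L median was the lowest of the 3 genotypes. Ifi204 had 0.992, 2.21 and 3.88 CPM in 5xFAD, 0.614, 1.62 and 2.64 CPM in 5xFADM28L and 0.977, 2.47 and 2.91 CPM in 5xFADP522R and a difference of 0.49. Of 3 Ifit genes Ifit3 was higher, with 11.9, 20.7 and 36.1 CPM in 5xFAD, 11.5, 19.03 and 33.9 CPM in 5xFADM28L and 14.9, 26.8 and 37.5 CPM in 5xFADP522R and a difference of 0.34. No GTPase and no ADP-ribosylation gene was called.

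Of 9 membrane and metabolic effectors Ifitm3, Slfn2, Samd9l and Bst2 were higher and Cmpk2 was lower. Ifitm3 stood at 0.85 (SE 0.13, adjusted p = 1.74e-05) and Slfn2 at 0.68 (SE 0.15, adjusted p = 0.000892). Samd9l, which restrains translation, had 4.78, 6.38 and 7.79 CPM in 5xFAD, 4.41, 5.53 and 8.19 CPM in 5xFADM28L and 5.91, 7.11 and 8.36 CPM in 5xFADP522R and a difference of 0.35. Bst2 was at the threshold, at 0.42 (SE 0.16, adjusted p = 0.0499).

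Of the 6 genes without a shared role Ifi27l2a, Lgals3bp, Ifi35 and Xaf1 were higher. Ifi27l2a, a small hydrophobic protein, had 0.685, 3.06 and 7.36 CPM in 5xFAD, 0.733, 1.96 and 4.28 CPM in 5xFADM28L and 1.12, 3.91 and 7.44 CPM in 5xFADP522R and the difference farthest from 0 among the members, 1.12 (SE 0.28, adjusted p = 0.00254). Lgals3bp had 29.2, 65.8 and 86.3 CPM in 5xFAD, 26.4, 41.01 and 69.9 CPM in 5xFADM28L and 42.9, 75.02 and 123 CPM in 5xFADP522R and a difference of 0.79 (SE 0.14, adjusted p = 0.000122). Ifi35, a leucine-zipper protein, had 1.88, 3.44 and 4.97 CPM in 5xFAD, 1.896, 2.59 and 3.85 CPM in 5xFADM28L and 2.24, 3.999 and 6.29 CPM in 5xFADP522R and a difference of 0.55. Xaf1, which binds an inhibitor of apoptosis, had 6.3, 8.798 and 12.8 CPM in 5xFAD, 5.15, 7.41 and 10.3 CPM in 5xFADM28L and 6.098, 8.57 and 10.96 CPM in 5xFADP522R and a difference of 0.26. In all 4 the groups overlapped.

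Of the 17 calls 10 held whichever library was left out. Without 5xFADM28L M 11 or 5xFADP522R M 31 the count fell to 11. Bst2 was called only without 5xFADP522R F 8 or M 21, 5xFADM28L F 16 or M 9, or 5xFAD M 1269. Usp18 was not called without 5xFADP522R F 8, F 106, M 23 or M 31, 5xFADM28L F 28, F 12, F 14, M 11 or M 15, or 5xFAD F 1189 or M 1181. Ifi204, Ifit3, Irf9, Xaf1 and Eif2ak2 were lost without any 1 of 9, 7, 5, 8 and 8 libraries. The libraries 5xFADM28L F 14, M 11 and M 15 and 5xFADP522R M 23 and M 31 were each among them for at least 3 of these 5 genes, and the others were 5xFADM28L F 28, F 12, F 16, M 9 and M 17 and 5xFADP522R F 8, F 106, F 24 and M 21. With the Bc1 share (log2) as covariate 0 of 17 were called, and Usp18, Ifi204, Ifi27l2a and Xaf1 stood at -0.01, -0.01, -0.06 and -0.07. Without the 5 libraries above 10% Bc1, 8 were called. Markers moved with the comparison. In 5xFADP522R 8 of 8 plaque-associated and 9 of 14 microglial genes were higher, where 16.5% of all genes were higher and 18.3% lower. Their summed levels had an exact permutation p, adjusted over 12 tests, of 0.027 and 0.086. The part of these markers was not tested.

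**Figure D4:**
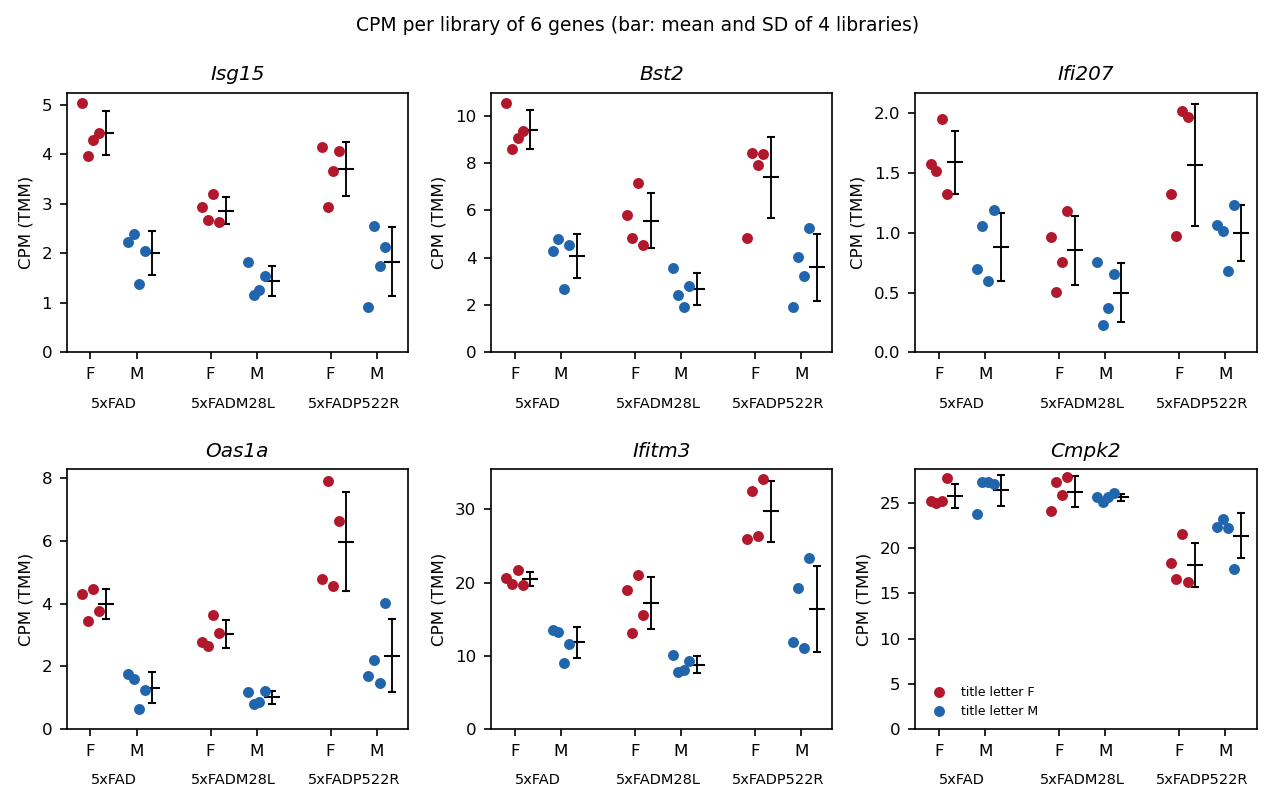
TMM CPM of Isg15, Bst2, Ifi207, Oas1a, Ifitm3 and Cmpk2 in each library by genotype (x axis) and title letter (colour), each panel with its own linear y axis from 0; points are libraries and black marks the mean and SD of 4. In Cmpk2 all 8 5xFADP522R libraries lie below the other 16, while in Isg15 every F library lies above every M library.

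The title letter made the larger difference. Over the 3 genotypes 34 of 46 members were higher in F than in M libraries and 1 was lower, Herc6. Of all genes 33.8% were called, 16.4% higher and 17.4% lower. The median of the members was 0.611 against -0.001 over all genes, and 38 members had a positive difference in all 3 genotypes, as 24.7% of all genes did.

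**Figure D5:**
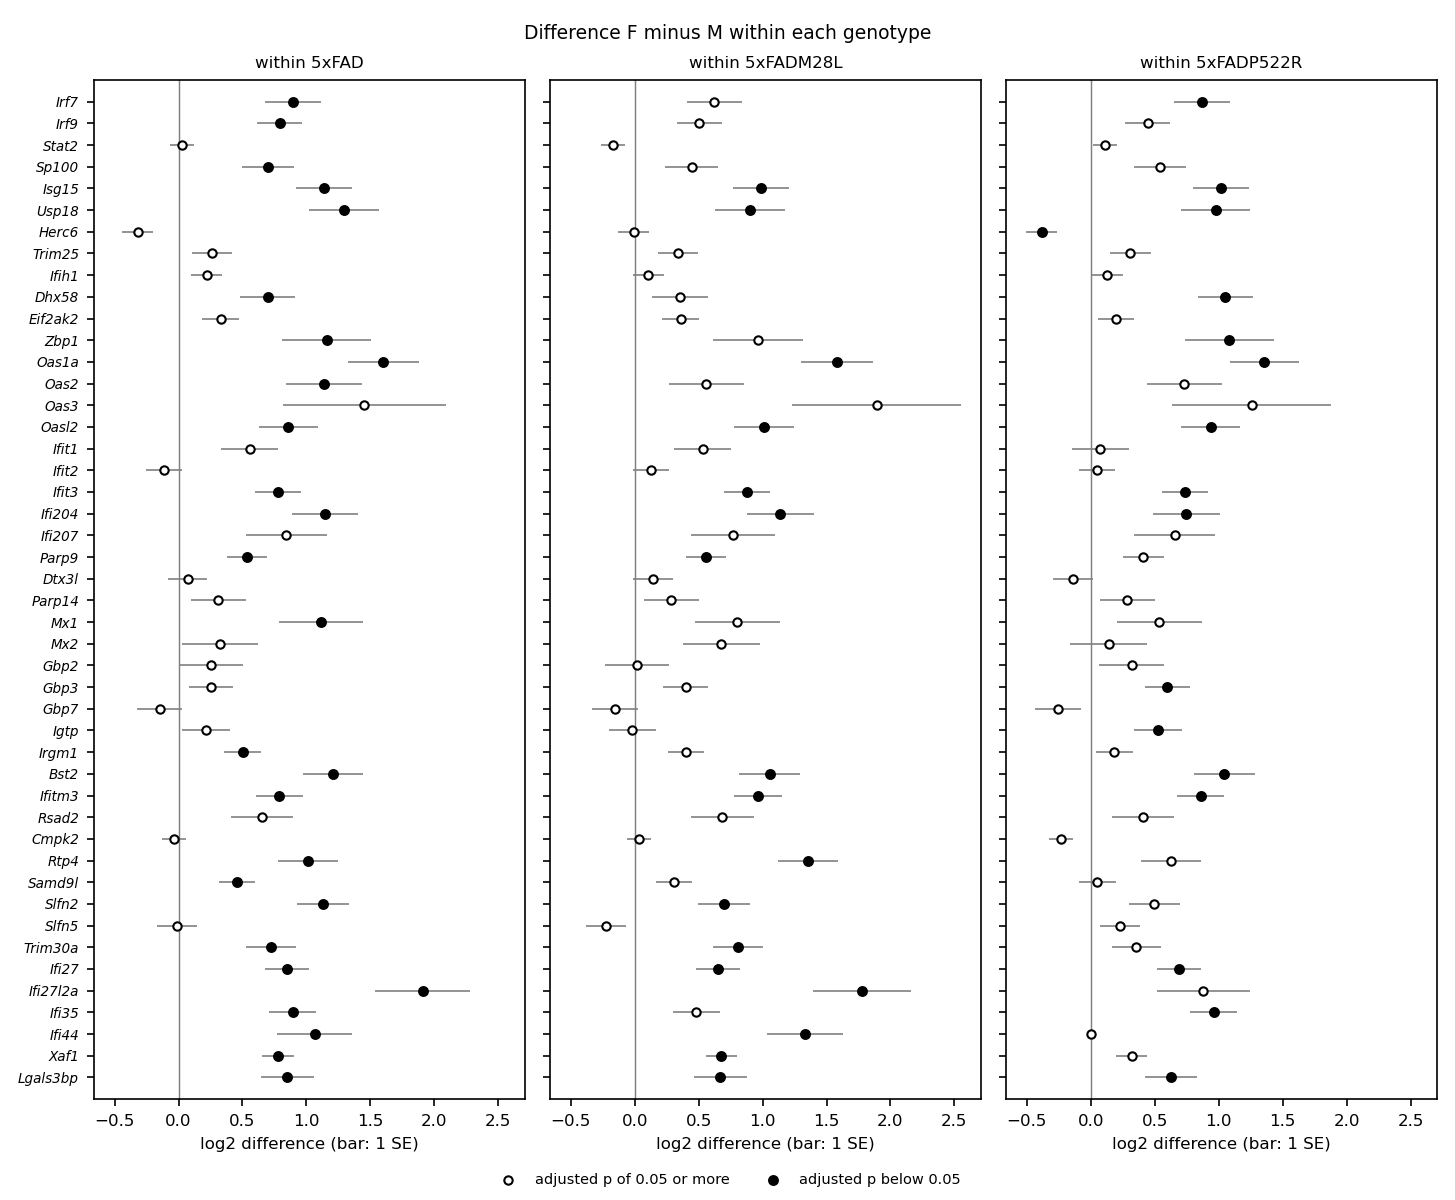
Fitted log2 difference F minus M (x axis) of each of the 46 members (y axis, grouped by role) in each genotype, 4 F against 4 M libraries; bars are 1 SE and filled points are called. Points to the right of 0 are higher in F, as 38 members are in all 3 panels, while Herc6 and Gbp7 lie left of 0 in all 3.

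Among the transcription factors Irf7, which amplifies interferon production, Irf9 and the nuclear body gene Sp100 were higher in F, at 0.80 (SE 0.13), 0.58 (SE 0.10) and 0.56 (SE 0.12). Irf7 lay at 3.403 to 6.83 CPM (median 4.93) in the 12 F and 1.82 to 3.98 CPM (median 2.92) in the 12 M libraries. Stat2 did not differ detectably, at -0.01 (SE 0.06, adjusted p = 0.919).

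In the ISG15 system Isg15, Usp18 and Trim25 were higher and Herc6, the ligase that attaches ISG15 in mice, was lower. Isg15 was read at 3.96, 4.29, 4.44 and 5.04 CPM in the F and 1.38, 2.05, 2.23 and 2.397 CPM in the M libraries of 5xFAD. In 5xFADM28L the values were 2.63, 2.67, 2.94 and 3.21 CPM in F and 1.15, 1.26, 1.54 and 1.83 CPM in M. In 5xFADP522R they were 2.95, 3.67, 4.07 and 4.14 CPM in F and 0.909, 1.74, 2.14 and 2.54 CPM in M. All 12 F values exceeded all 12 M values, with 2.63 CPM the lowest of F and 2.54 CPM the highest of M. Among the members only Isg15 showed this, against 0.183% of all genes, and none lay wholly lower in F, against 0.094%. The difference was 1.05 (SE 0.12, adjusted p = 8.84e-07). Usp18 lay at 2.99 to 6.86 CPM (median 4.55) in F and 1.26 to 4.18 CPM (median 2.23) in M libraries and differed by 1.06 (SE 0.16), and Trim25, a ligase that acts on the RNA sensor RIG-I, differed by 0.30 (SE 0.09). Herc6 went the other way, at -0.24 (SE 0.08, adjusted p = 0.0169), and read at 6.26, 8.14, 8.96 and 9.11 CPM in F against 9.38, 10.2, 10.3 and 12.5 CPM in M of 5xFADP522R. In 5xFADM28L it stood at -0.01, without the 5 libraries high in Bc1 it was not called (-0.18, edgeR's adjusted p = 0.114), and with offsets for GC content and length its sign turned, to 0.09.

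Of the 8 RNA sensors and dsRNA enzymes 7 were higher in F. Oas1a, at 1.51 (SE 0.16, adjusted p = 1.48e-07), and Oas3, at 1.52 (SE 0.36, adjusted p = 0.00181), had the largest differences of this group, the latter at low levels of 0.376 to 1.34 CPM (median 0.729) in F and 0 to 0.9 CPM (median 0.185) in M. Zbp1, which senses Z-form nucleic acid and can start necroptosis, stood at 1.07 (SE 0.20), Oasl2 at 0.93 (SE 0.13), Oas2 at 0.81 (SE 0.17) and the helicase Dhx58 at 0.70 (SE 0.13). Zbp1 lay at 0.8199 to 2.44 CPM (median 1.598) in F and 0.251 to 1.28 CPM (median 0.76) in M libraries, with overlap. Eif2ak2 was higher by less, at 0.30 (SE 0.08). The helicase Ifih1, which senses long dsRNA, did not pass, at 0.15 (SE 0.07, adjusted p = 0.0961).

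Of the Ifit genes Ifit3 and Ifit1 were higher, at 0.80 (SE 0.10) and 0.39 (SE 0.13), and Ifit2 stood at 0.02 (SE 0.08, adjusted p = 0.877). Both HIN200 genes were higher, Ifi204 at 1.01 (SE 0.15) and Ifi207 at 0.76 (SE 0.18). In the ADP-ribosylation group Parp9 was higher at 0.50 (SE 0.09), while its partner Dtx3l was at 0.03 (SE 0.09, adjusted p = 0.864). In the coordinates of the deposited table these partners share 458 exon bases on opposite strands. Without a known strand setting reads there cannot be assigned. Parp14 stood at 0.29 (SE 0.12, adjusted p = 0.0611).

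Among 7 GTPases the dynamin-like Mx1, Gbp3 and Irgm1 were higher, at 0.82 (SE 0.19), 0.42 (SE 0.10) and 0.36 (SE 0.09). Mx2, Igtp, Gbp2 and Gbp7 did not pass, at 0.38, 0.24, 0.20 and -0.19 (edgeR's adjusted p = 0.0935, 0.103, 0.318 and 0.164). The guanylate-binding genes Gbp2, Gbp3 and Gbp7 are close paralogs that lie side by side, and reads may be split between them.

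Of 9 membrane and metabolic effectors 7 were higher. Bst2 was read at 8.62, 9.08, 9.37 and 10.6 CPM in F and 2.696, 4.295, 4.52 and 4.79 CPM in M libraries of 5xFAD, and over the 3 genotypes it differed by 1.10 (SE 0.14, adjusted p = 1.28e-06). Ifitm3 differed by 0.87 (SE 0.11), Rtp4, a chaperone of receptors at the cell surface, by 0.996 (SE 0.15), Slfn2 by 0.77 (SE 0.12), Trim30a by 0.63 (SE 0.12), Rsad2 by 0.58 (SE 0.14) and Samd9l by 0.27 (SE 0.09). Rtp4 lay at 4.81 to 9.33 CPM (median 5.95) in F and 1.75 to 5.29 CPM (median 3.24) in M libraries, and Rsad2 at 2.2 to 5.104 CPM (median 3.09) and 1.02 to 3.19 CPM (median 2.28). Cmpk2, which set 5xFADP522R apart, and Slfn5 did not pass between the letters (edgeR's adjusted p = 0.336 and 0.984). Cmpk2 stood at -0.08, with 25.01, 25.2, 25.2 and 27.7 CPM in F and 23.8, 27.1, 27.3 and 27.4 CPM in M libraries of 5xFAD.

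All 6 genes without a shared role were higher in F, Ifi27l2a at 1.51 (SE 0.23), Ifi44 at 0.80 (SE 0.20), Ifi35 at 0.78 (SE 0.11), Ifi27 at 0.73 (SE 0.10), Lgals3bp at 0.72 (SE 0.12) and Xaf1 at 0.59 (SE 0.08). Ifi27, one of the most abundant members per length, had lowest, median and highest values of 22.2, 35.3 and 51.6 CPM in 5xFAD, 19.96, 23.1 and 41.9 CPM in 5xFADM28L and 16.1, 35.7 and 47.6 CPM in 5xFADP522R. Its F values in 5xFADM28L, 23.2, 33.9, 38.1 and 41.9 CPM, all lay above its M values, 19.96, 21.98, 22.4 and 23.03 CPM, by a narrow margin for the lowest.

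Within single genotypes the calls were fewer and the direction was kept by most members. In 5xFAD 27 members were higher in F and 0 lower (7.89% of all genes were higher and 6.36% lower), with a median of 0.749. In 5xFADM28L 17 were higher and 0 lower (8.05% of all genes were higher and 6.92% lower), with a median of 0.592. In 5xFADP522R 16 were higher and 1 lower (8.97% of all genes were higher and 13.4% lower), with a median of 0.51. Called in all 3 were 10 members, Isg15, Usp18, Oas1a, Oasl2, Ifit3, Ifi204, Bst2, Ifitm3, Ifi27 and Lgals3bp, where 1.72% of all genes were called higher in all 3. All 4 F values lay above all 4 M values for 29 members in 5xFAD, 16 in 5xFADM28L and 13 in 5xFADP522R, where 14.1%, 10.7% and 5.64% of all genes did so. The opposite held for 1, 0 and 1 members, Herc6 in 5xFAD and in 5xFADP522R, and for 11.6%, 13.2% and 6.69% of all genes. Isg15, Oas1a, Oasl2, Ifit3, Ifitm3 and Rtp4 had every F value above every M value in each of the 3 genotypes, as 1.25% of all genes did. The 35 calls over all genotypes held whichever single library was left out, and with the Bc1 share (log2) as covariate 22 of them were called.

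The genotype differences of the members were not shown to depend on the letter. The test of the difference between letters (genotype by letter, edgeR) called 0 of 46 members for each pair of genotypes, where 0.0282%, 0% and 5.47% of all genes were called for 5xFADM28L against 5xFAD, 5xFADP522R against 5xFAD and 5xFADP522R against 5xFADM28L (in the last, 1.95% higher and 3.52% lower). At an unadjusted p below 0.05 there were 0, 3 and 7 of 46 members, where 2.21%, 13.5% and 28.1% of all genes passed, so the members passed no more often than genes in general. The nearest was Ifi44, at -1.33 (SE 0.42, adjusted p = 0.0552) for 5xFADP522R against 5xFADM28L, and DESeq2 called 1 member there. Without 5xFADP522R F 54 edgeR called 2, and without 5xFADM28L F 12 or F 16 or 5xFADP522R M 27 it called 1.

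Beside the letter difference of the members, 13 of 14 microglial genes and 8 of 8 plaque-associated genes were higher in F. The summed microglial level was 1070 to 1759 CPM in F and 699.7 to 1349 CPM in M libraries, and that of plaque-associated microglia 165 to 455.5 CPM and 97.0 to 293 CPM. Of 5 astrocyte genes the filament gene Gfap was higher in F, at 1.25, Slc1a3 and Gja1 were lower, at -0.27 and -0.28, and Aqp4 and Aldh1l1 were not called, at -0.09 and 0.06. Of the T and NK cell markers Cd8a, Nkg7 and Cd3e were higher in F, at 1.42, 2.24 and 1.19, at no more than 0.485, 0.338 and 0.447 CPM in any library and with no count in 1, 5 and 1 libraries. Of the B and plasmacytoid dendritic cell markers Cd79b and Siglech were higher in F, at 0.97 and 0.56. Of 6 endothelial genes 0 were higher and Flt1 was lower, at -0.52, where 16.4% of all genes were higher and 17.4% lower. Of 4 choroid plexus genes Kl and Ttr were lower in F, at -0.92 and -3.47, and both were highest in 5xFADM28L M 17, Ttr at 239.7 CPM where the median of M libraries was 0.829 CPM. Without that library, an alternative chosen after seeing the data, Kl stood at -0.65 and Ttr at -1.30, and Ttr was not called (edgeR's adjusted p = 0.0922). Their part in the result was not tested.

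In the pathway list 16 of 36 genes were higher in F and 6 lower, where 16.4% of all genes were higher and 17.4% lower. Higher were Ifnar2 at 0.31, the factors Irf5 and Irf8 at 0.76 and 0.81, the phosphatase Ptpn6 at 0.96, the endosomal RNA sensor Tlr7 at 0.57 and the adaptor Sting1 at 0.54. Lower were Ifnar1 at -0.20, Jak1 at -0.24, Jak2 at -0.28, Tbk1 at -0.18, Adar at -0.28 and Pnpt1 at -0.24. Of the further interferon-induced genes 39 of 68 were higher and 1 lower, the largest of them Oas1g at 1.48, Lgals3 at 1.28 and Ifi213 at 1.27.

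Members that lie side by side did not always share a call. In the coordinates of the deposited table, 19 members lay within 100000 bases of another, in 14 pairs. Rsad2 and Cmpk2 are 12751 bases apart on chromosome 12 and face away from each other, and stood at 0.58 and -0.08 between the letters. Ifit2 and Ifit3 are 7111 bases apart on chromosome 19 in the same direction, and stood at 0.02 and 0.80. Ifi27 and Ifi27l2a, 1927 bases apart on chromosome 12, were both higher in F, as were Oas2 and Oas3, 3244 bases apart on chromosome 5. Of the 19 members with an ISRE match 13 were higher in F, with a median of 0.415, and of the 15 with a window and no match 11 were higher and 1 lower, with a median of 0.581.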

How the data were processed

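Messenger RNA of mouse cortex was sequenced in 24 libraries, 8 per genotype. The KAPA mRNA HyperPrep chemistry was used, per the labels' protocols. STAR 2.7.2b and featureCounts are named per the submitters' processing notes. The genome build, annotation and strand setting are not given in the sources used here, and reads of overlapping or antisense genes cannot be told apart. The deposited values are whole-number read counts per gene, not normalized, with gene coordinates in a build the table does not name. Of 53647 identifiers 52093 (97.1%) matched GENCODE M21 symbols.

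Counts were scaled with TMM and tested with edgeR 4.0.16 in R 4.3.3 (quasi-likelihood F-test, filterByExpr on genotype) in 1 fit of all 24 libraries with genotype and title letter as terms, and a further fit with their interaction. P-values were adjusted over 21280 genes (Benjamini-Hochberg), and calls are at an adjusted p below 0.05 with no minimum fold. The SE is the log2 difference divided by the square root of F. The score uses log2 CPM with a prior count of 2. Bc1 shares and summed marker levels were compared by two-sided exact permutation of the libraries of 2 genotypes, without regard to the title letter. The pipeline was tested on simulated data. The p-values set a difference against the spread between these mice, with 8 libraries per genotype and 12 per letter.

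The members and all lists were chosen with earlier results of these data known. Values by genotype are given for the 20 members with the smallest p among those called between genotypes (Usp18 ranked next) and for the 5 with the highest level per length. Alternatives were DESeq2 1.42.0, limma 3.58.1 (voom with sample weights), other scalings, filters, covariates, GC and length offsets, subsets and each library left out. The 5 libraries above 10% Bc1, and the alternatives for F against M on the Bc1 share, GC and length, voom and single genotypes, were chosen after seeing the data. No 2 libraries were copies (276 pairs, smallest chi-square per degree of freedom 9.057).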

Additional observations from a re-analysis of the deposited data

Results flagged for a closer look

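In 3 of 141 groups of 8 libraries (46 members and the score in each of 3 genotypes) a single library lay far from the other 7 by Dixon's test. Chance flags about 1 group in 20, or 7.0 here, where the libraries of a group are alike in kind. Each group here pools 4 F and 4 M libraries, and a gap between letters widens the range that the test divides by. The count of 3 therefore does not show that outlying libraries were few. Sp100 stood at 7.476 CPM in 5xFADM28L F 28, with the next library at 4.957 CPM. Mx2 stood at 2.585 CPM in the same library, with the next at 1.547 CPM. Igtp stood at 12.33 CPM in 5xFADM28L M 9, with the next at 8.638 CPM. None of these 3 genes was called between genotypes.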

How the results depend on the processing

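For 5xFADM28L against 5xFAD, 2 members were called. The count was 5 with DESeq2, 11 with limma-voom, 6 with GC and length offsets, 6 with only the 2 genotypes compared and 0 without the title letter, with the Bc1 covariate, in F or in M libraries alone. It was 1 without the 5 libraries above 10% Bc1 and 0 to 3 with single libraries left out. For 5xFADP522R against 5xFAD, 9 members were called. The count was 4 without the letter, 4 in F and 4 in M libraries alone, 1 with the Bc1 covariate, 3 without the 5 libraries and 6 to 12 with single libraries left out. The median there was 0.001 with GC and length offsets and 0.008 in M libraries alone, and below 0 in the other settings run. For 5xFADP522R against 5xFADM28L, 17 were called. The count was 9 without the letter, 0 with the Bc1 covariate, 11 in M libraries alone, 8 without the 5 libraries and 11 to 22 with single libraries left out. With the Bc1 covariate Usp18 turned to -0.013, Ifi204 to -0.007, Ifi27l2a to -0.06 and Xaf1 to -0.066. For F against M, 35 were called. The count was 22 with the Bc1 covariate, 20 in 5xFADM28L and 14 in 5xFADP522R libraries alone. Called in every setting run were 10 of these 35 members, and 0 of the 2, 9 and 17 members called in the 3 genotype comparisons. Herc6 turned to 0.085 with GC and length offsets and to 0.02 in 5xFADM28L libraries alone. The difference between letters for 5xFADP522R against 5xFADM28L called 0 members, and 1 with DESeq2, 1 without the filter on low counts, 1 with a mean of at least 1 CPM and 0 to 2 with single libraries left out. The cause of these changes was not tested. Subsets hold fewer libraries.

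The titles carry a prefix that recurs across genotypes. Over 9 pairs the correlation of deviations ran from -0.238 to 0.355 and 3 exceeded 0.1, so the prefix was not taken to pair libraries. With the prefix as a replicate block 4, 2 and 7 members were called for 5xFADM28L against 5xFAD, 5xFADP522R against 5xFAD and 5xFADP522R against 5xFADM28L. Depth limits the least read members: Oas3 had no count in 1 library.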
